A study of Mus musculus with 18 samples.

Results

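NKT1 and NKT17 cells from the thymus of SKG mice were compared across all genes, to describe which differences between these effector subsets were present when the T cell receptor (TCR) signalled through a weakened ZAP70 kinase. The comparison used the 3 libraries labelled SKG NKT1 and the 3 labelled SKG NKT17, chosen by their labels alone and with no measured value, which are 6 of the 18 libraries of the study. The other libraries were NKT1, NKT2 and NKT17 cells of WT mice and NKT2 cells of SKG mice, with 3 libraries in each of the 6 groups, all from thymus and all on the BALB/c background. SKG mice carry a spontaneous point mutation in an SH2 domain of Zap70, present in every cell of the animal, and the WT and SKG mice of the study were bred from the same cross. No treatment is named for these libraries, and the age of the mice and whether a library held cells of more than 1 mouse are not given in the sources used here. Nothing in the labels says that libraries came from separate mice, so p-values measure the spread between these libraries, which may be partly technical.

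Invariant natural killer T (iNKT) cells are T lymphocytes with a semi-invariant TCR that recognises lipids presented by CD1d, and they acquire effector functions while still in the thymus. NKT1 cells depend on the transcription factor T-bet, encoded by Tbx21, carry receptors shared with NK cells and make IFN-γ. NKT17 cells make IL-17 and respond to IL-23 and IL-1. ZAP70 binds the phosphorylated CD3 chains of an engaged TCR and relays the signal to the adaptors LAT and SLP-76, from which calcium, Ras and NF-κB signals branch.

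The cells were sorted by flow cytometry as binding the CD1d tetramer loaded with α-galactosylceramide, with NKT1 gated as ICOS-lo CD49a+ and NKT17 as CD49a-, ICOS-hi and Sdc-1+. The genes of these 3 sorted proteins therefore differed by selection and are no finding. Itga1 (CD49a) had 210, 236 and 189 CPM (the reads of a gene scaled to the size of its library) in the 3 SKG NKT1 libraries and 0.142, 0 and 0 CPM in SKG NKT17. Sdc1 had 0.929, 0.417 and 0.173 CPM in SKG NKT1 and 428, 400.1 and 419 CPM in SKG NKT17, and Icos 211 to 247 against 944 to 1007 CPM. All libraries thus matched their gate at these genes.

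Total counts were 4938755 to 6027514 in SKG NKT1 and 5242507 to 7055288 in SKG NKT17, so 3 reads in 1 library stood for about 0.567 CPM in the former group and 0.504 CPM in the latter. Libraries of 1 group differed by more than sampling noise (chi-square per degree of freedom 5.77 to 12.04 between replicate libraries of the SKG subsets) and were all kept as replicates. The edgeR test covered 11118 genes with enough reads, and a gene was called when its Benjamini-Hochberg adjusted p was under 0.1 and its fold change at least 1.5, the thresholds of the study. All log2 fold changes are NKT1 over NKT17, so a positive value is a higher level in NKT1, and each is given with its standard error (SE). In bulk libraries, fewer cells that express a gene and less RNA of it per cell cannot be told apart.

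Of the 11118 genes tested, 2533 (22.8%) were called between SKG NKT1 and SKG NKT17. The 1139 genes higher in NKT1 made up 10.2% of those tested and the 1394 higher in NKT17 12.5%. For 4737 genes (42.6%) the 3 libraries of 1 subset lay wholly above those of the other, which is the background for every statement on separation that follows. The median log2 fold change over all tested genes was -0.014, a value that the scaling of the libraries holds near 0, and among the called genes the median absolute log2 fold change was 1.46. On principal components of the libraries of both genotypes, the first component, with 30.9% of the variance, placed the SKG NKT1 libraries between -55.2 and -49.8 and the SKG NKT17 libraries between 54.6 and 58.9.

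Zap70 itself (chromosome 1, 36818695 to 36839663, plus strand, NCBIM37) was transcribed at similar levels in the 2 SKG subsets. Its level was 483, 421 and 529 CPM in SKG NKT1 and 565, 453 and 564 CPM in SKG NKT17, with overlapping ranges. The log2 fold change was -0.14 (SE 0.12, adjusted p = 0.412). The SKG mutation alters the protein, so the transcript level is no check of the genotype.

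Tbx21, the gene of the defining NKT1 factor, separated the subsets by more than 100-fold. Tbx21 (chromosome 11, 96959385 to 96976645, minus strand, NCBIM37) had 501, 389 and 550 CPM in SKG NKT1 and 2.98, 0 and 1.13 CPM in SKG NKT17. No library fell between the groups. The log2 fold change was 8.33 (SE 0.57, adjusted p = 9.54e-08), so the labels were matched by this gene in all 6 libraries.

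Of the 6 NKT1 markers, 5 were called higher in SKG NKT1, against 10.2% of all genes, and 1 was not called. Ifng, the gene of the signature NKT1 cytokine, had 179, 244 and 183 CPM in SKG NKT1 and 1 read in all 3 SKG NKT17 libraries together, a ratio of 3628 with a 95% counting interval of 651 to 143361. Cxcr3, a chemokine receptor of type 1 lymphocytes, had 737, 783 and 861 CPM against 9.63, 3.49 and 4.5 CPM (log2 fold change 7.03, SE 0.47, adjusted p = 6.32e-08). Xcl1, a chemokine that attracts cross-presenting dendritic cells, had 203, 212 and 273 CPM against 6 reads in all (ratio 697, interval 320 to 1900). Il2rb, the β-chain shared by the receptors of IL-2 and IL-15, was graded rather than restricted, with 2272, 1954 and 2144 CPM in SKG NKT1 and 205, 155 and 187 CPM in SKG NKT17 (log2 fold change 3.54, SE 0.12, adjusted p = 6.4e-16). The exception was Klrb1c, the gene of NK1.1, at 31.2, 15.6 and 34.1 CPM in SKG NKT1 and 29.5, 23.7 and 23.7 CPM in SKG NKT17, where the ranges overlapped and the test was not passed (log2 fold change 0.08, SE 0.32, adjusted p = 0.904).

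The NKT17 markers Il17a, Il23r, Il1r1 and Ccr6 were all called higher in SKG NKT17. Il17a had 0 reads in the SKG NKT1 libraries and 10.5, 8.03 and 6.94 CPM in SKG NKT17, at least 15.4-fold higher against a floor of 3 reads per library. Il17f, the neighbouring IL-17 gene, had too few reads to be tested, with 0 in SKG NKT1 and 0.708, 1.4 and 1.69 CPM in SKG NKT17. The receptors that respond to the cytokines driving IL-17 production were far more abundant. Il23r had 1 read in the 3 SKG NKT1 libraries and 236, 251 and 246 CPM in SKG NKT17 (ratio 3891, interval 698 to 153725). Il1r1 had 0.929, 0 and 0 CPM against 216, 236 and 246 CPM (log2 fold change -9.44, SE 0.61, adjusted p = 2.26e-08). Ccr6, the receptor of CCL20, had 3 reads in SKG NKT1 and 593, 618 and 565 CPM in SKG NKT17 (ratio 3154, interval 1079 to 15295).

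**Figure D1:**
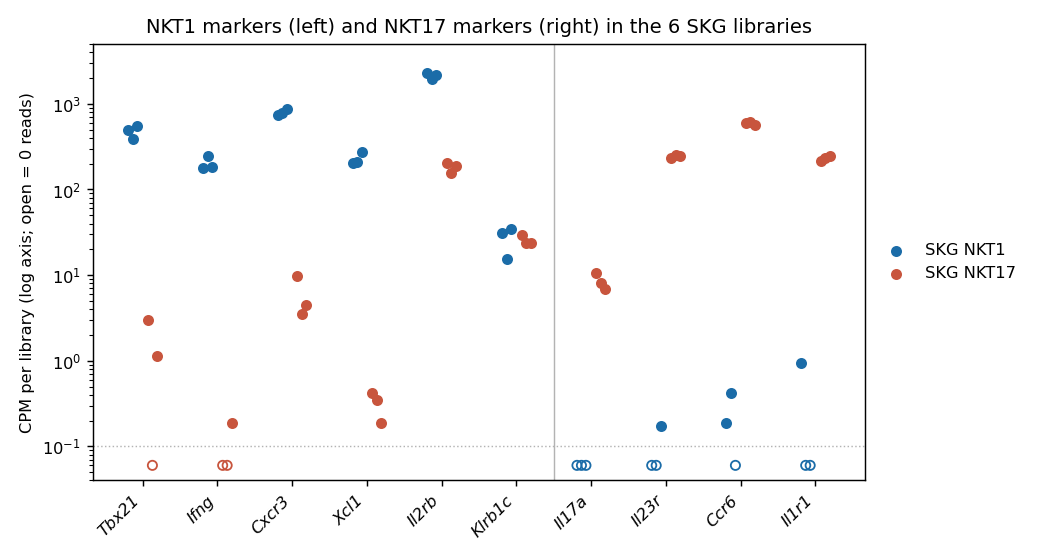
CPM per library on a log axis for the 6 NKT1 markers (left) and the 4 NKT17 markers Il17a, Il23r, Ccr6 and Il1r1 (right), with SKG NKT1 libraries in blue and SKG NKT17 libraries in red. Open points below the dotted line are libraries with 0 reads. The subsets do not overlap for any gene but Klrb1c, where the points lie between 15.6 and 34.1 CPM.

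The wider type 17 programme was present as a block in SKG NKT17. The lists used here and below were chosen with earlier results of these data known, so their shares are descriptive. All 19 tested members of a list of 20 genes of this programme were called higher in SKG NKT17, against 12.5% of all genes, and the median log2 fold change was -7.7 (-5.29 with the 2 genes at 0 in SKG NKT1 set to their bound). Besides the receptors above, they included Rora, a nuclear receptor, with 21.5 to 31.9 CPM in SKG NKT1 and 171 to 195 CPM in SKG NKT17. Maf, a transcription factor of IL-17-producing cells, had 25.4 to 37.9 against 126 to 168 CPM, and Ahr, the aryl hydrocarbon receptor, 22.1 to 36 against 82.9 to 100.4 CPM, the smallest difference of the list (log2 fold change -1.75, SE 0.28, adjusted p = 5.45e-05). Several members were close to absent from SKG NKT1. Il17re, a receptor chain for IL-17C, had 0.743, 0 and 0 CPM in SKG NKT1 and 250, 234 and 251 CPM in SKG NKT17, Blk, a Src-family kinase best known from B cells, had 2.79, 0.833 and 0.693 against 859, 669 and 955 CPM, and Sox13, a factor of IL-17-producing γδ T cells, 0.186, 0 and 0.693 against 132, 85 and 134 CPM. Il22 had 0 reads in SKG NKT1 and 9.21, 10.8 and 10.3 CPM in SKG NKT17 (at least 17.8-fold higher).

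Other members of the list were expressed in both subsets at unequal levels. Tmem176a and Tmem176b, neighbouring genes of intracellular cation channels, had 29.6 to 41.2 and 39.4 to 48.5 CPM in SKG NKT1 and 1082 to 1466 and 1050 to 1477 CPM in SKG NKT17 (log2 fold change -5.29, SE 0.19 and -4.85, SE 0.22). Ramp1, a chain of the receptor for calcitonin gene-related peptide, had 246 to 343 against 1629 to 2025 CPM. Serpinb1a, a serine protease inhibitor with close paralogs that could share reads, had 1.11 to 5.62 against 269 to 402 CPM. Aqp3, a water and glycerol channel, had 23.4 to 29 against 295 to 309 CPM. In each of these genes the 3 SKG NKT17 libraries lay above the 3 SKG NKT1 libraries.

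The sequence before the start of 3 of these genes, and of the NKT1 granule gene Nkg7 described further on, is given because these restricted genes hold a match to a motif. The sequences are the 250 bases before the RefSeq start on build GRCm38.p6, read 5′ to 3′ on the strand of the gene, and the 6 or 7 bases in capitals mark a match in either orientation. In Il17a, Il23r and Ccr6 the capitals mark AGGTCA, the core of the element bound by nuclear receptors of the kind Rora encodes, and in Nkg7 they mark AGGTGTG, the core of the T-box element. The windows are chr1:20730655-20730904 (plus strand) for Il17a, chr6:67491856-67492105 (minus strand) for Il23r, chr17:8235793-8236042 (plus strand) for Ccr6 and chr7:43436888-43437137 (plus strand) for Nkg7.
Il17a: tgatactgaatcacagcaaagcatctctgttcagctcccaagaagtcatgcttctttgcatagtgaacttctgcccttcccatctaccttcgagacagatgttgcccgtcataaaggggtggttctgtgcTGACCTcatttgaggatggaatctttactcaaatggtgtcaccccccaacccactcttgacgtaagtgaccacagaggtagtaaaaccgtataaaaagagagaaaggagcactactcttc
Il23r: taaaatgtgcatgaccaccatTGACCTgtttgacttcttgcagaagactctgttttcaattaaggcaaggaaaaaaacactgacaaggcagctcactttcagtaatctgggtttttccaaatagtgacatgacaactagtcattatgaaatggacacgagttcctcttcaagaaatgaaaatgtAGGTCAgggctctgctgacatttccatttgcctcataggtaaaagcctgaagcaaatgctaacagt
Ccr6: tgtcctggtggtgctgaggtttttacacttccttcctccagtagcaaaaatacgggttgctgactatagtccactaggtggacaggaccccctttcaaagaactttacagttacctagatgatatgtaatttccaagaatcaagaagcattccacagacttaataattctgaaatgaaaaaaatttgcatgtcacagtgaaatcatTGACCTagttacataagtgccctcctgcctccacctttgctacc
Nkg7: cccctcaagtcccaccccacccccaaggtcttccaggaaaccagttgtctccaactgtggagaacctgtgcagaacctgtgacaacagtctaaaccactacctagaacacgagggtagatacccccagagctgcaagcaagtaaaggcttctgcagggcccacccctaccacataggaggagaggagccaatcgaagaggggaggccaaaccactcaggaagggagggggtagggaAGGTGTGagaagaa
The match began 120 bases before the start in Il17a and 44 bases before it in Ccr6, Il23r held matches that began 229 and 66 bases before it, and the match in Nkg7 began 14 bases before the start. Such words are common, since of 27025 mouse genes with such a window, 4260 (15.8%) held AGGTCA and 1588 (5.88%) held AGGTGTG on either strand. Most genes of the lists held no match. Of the type 17 genes, 15 had a window and 4 held AGGTCA, the 3 above and Il17f. Of 16 granule and death ligand genes with a window, 1 held AGGTGTG, and of 28 NK receptor and adaptor genes 0 did. A match is a stretch of letters and no evidence of binding. Too few of the tested genes had a window (8056 of 11118) to compare called with other genes.

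NK cell receptors and their adaptors formed the block of opposite direction. Of 27 tested members, 22 were called higher in SKG NKT1 (against 10.2% of all genes) and 1 higher in SKG NKT17, with a median log2 fold change of 7.5 (5.98 with the 6 genes at 0 in SKG NKT17 set to their bound). Activating receptors were led by Ncr1 (NKp46), with 24.9, 27.1 and 40.9 CPM in SKG NKT1 and 0 reads in SKG NKT17 (at least 63.1-fold higher), and Klrk1 (NKG2D), with 594, 712 and 542 against 27.6, 12.2 and 13.3 CPM. Klrc1, which encodes the inhibitory receptor NKG2A, had 52.2, 41.4 and 38.5 CPM against 0 reads (at least 88.6-fold higher), and its partner Klrd1 (CD94) had 328, 366 and 379 against 3.26, 2.27 and 1.31 CPM. The adaptors through which activating receptors signal followed, with Fcer1g at 171, 199 and 212 against 1.13, 0.174 and 0.188 CPM and Tyrobp (DAP12) at 46.8, 43.7 and 55.4 CPM against 3 reads in all (ratio 296, interval 101 to 1439). Hcst (DAP10), the adaptor of NKG2D, was present in both subsets, at 413 to 550 and 217 to 308 CPM (log2 fold change 0.78, SE 0.17, adjusted p = 0.00171).

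Receptors of the Ly49 family were read far more in SKG NKT1 than in SKG NKT17. The Klra genes are near-identical copies among which reads could be split, so the level of any single member is uncertain. Klra5 had 253, 196 and 215 CPM against 3 reads in all (ratio 1340, interval 458 to 6503), and Klra10 had 21.7, 19.4 and 25 CPM against 0 reads (at least 44.7-fold higher). WT NKT1 cells had more of both, at 620 to 853 CPM for Klra5 and 44 to 67.7 CPM for Klra10. The paper reports lower transcription of most NK receptors in SKG than in WT NKT1 cells. The levels of NKT1 cells in the 2 genotypes were not tested here. Klrb1f, a member of the NKR-P1 family, was the exception of the list. It had 18, 21.7 and 29.4 CPM in SKG NKT1 and 51, 68 and 56.1 CPM in SKG NKT17 (log2 fold change -1.34, SE 0.26, adjusted p = 0.000354).

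Genes of cytotoxic granules and death ligands were mostly higher in SKG NKT1, with 12 of 16 tested members called in that direction, against 10.2% of all genes, and 1 in the other (median log2 fold change 2.48). Gzma had 469, 818 and 419 CPM in SKG NKT1 and 1.27, 0.872 and 0.375 CPM in SKG NKT17 (log2 fold change 9.3, SE 0.56, adjusted p = 2.25e-08). Gzmb had 1335, 1435 and 1269 against 36.4, 21.3 and 15.2 CPM (log2 fold change 5.77, SE 0.57, adjusted p = 5.49e-06). Nkg7, a granule membrane protein needed for efficient degranulation, had 3929, 3768 and 4071 CPM against 41.1, 13.3 and 21.2 CPM (log2 fold change 7.26, SE 0.64, adjusted p = 1.73e-06). Prf1, which encodes the pore-forming perforin, was less restricted, at 228, 206 and 173 against 36, 21.5 and 24.2 CPM (log2 fold change 2.88, SE 0.31). Of the death ligands, Fasl had 489, 377 and 438 against 11.8, 9.94 and 10.3 CPM, and Tnfsf10 (TRAIL) 87.9, 95 and 95.3 against 11.5, 14.8 and 12.6 CPM. The cathepsins Ctsw and Ctsd were also higher in SKG NKT1, at 2376 to 2650 against 568 to 588 CPM and 3619 to 3880 against 853 to 940 CPM. Ctsl, another cathepsin, was called higher in SKG NKT17 on few reads (0 to 1.67 against 3.75 to 8.78 CPM, adjusted p = 0.0582), a call lost without SKG NKT1 replicate 1 or 3 or SKG NKT17 replicate 1.

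Transcription factors split by subset, and 25 of the 44 tested were called, 9 higher in SKG NKT1 and 16 higher in SKG NKT17, against 22.8% of all genes. On the NKT1 side, Hopx, a homeodomain cofactor of effector T cells, had 144, 156 and 136 CPM against 2.83, 1.57 and 1.13 CPM. Stat4, which transmits the IL-12 signal, had 284, 345 and 296 against 45.8, 46.8 and 58.2 CPM, and Myc, a driver of growth, 373, 407 and 334 against 93.5, 73.8 and 77.1 CPM. Irf8 had 36.4, 25.4 and 33.6 against 2.69, 3.84 and 2.63 CPM. On the NKT17 side, Tcf7, which encodes TCF-1, had 77.3, 68.3 and 57.2 CPM in SKG NKT1 and 330, 331 and 319 CPM in SKG NKT17 (log2 fold change -2.27, SE 0.16, adjusted p = 2.21e-10). Its relative Lef1 (chromosome 3, 130813389 to 130927274, plus strand, NCBIM37) went the other way, with 65, 44.8 and 72.1 CPM in SKG NKT1 against 8.22, 10.3 and 7.51 CPM in SKG NKT17 (log2 fold change 2.81, SE 0.22, adjusted p = 3.5e-09).

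The Runx factors, which act in T cell lineage choice, divided between the subsets. Runx3 was higher in SKG NKT1, with 103 to 130 against 65.8 to 71 CPM (log2 fold change 0.76, SE 0.22, adjusted p = 0.0148), whereas Runx1 (16.9 to 19.6 against 50.9 to 59.7 CPM) and Runx2 (10.2 to 11.7 against 25.5 to 36.4 CPM) were higher in SKG NKT17. Ikzf2 (Helios) had 5.76 to 16.4 against 47.9 to 61.4 CPM, and Id3, an antagonist of E proteins, 4.17 to 7.62 against 16.8 to 19.7 CPM. Klf2, a factor of thymic egress, had 240 to 483 against 85 to 101 CPM and did not pass the test (log2 fold change 1.85, SE 0.77, adjusted p = 0.104), although its libraries did not overlap and DESeq2 called it.

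Genes that mark NKT2 cells, the IL-4-producing subset, did not move as a group. Of the 6, 2 were called higher in SKG NKT1 and 3 higher in SKG NKT17, against 10.2% and 12.5% of all genes, and 1 was not called. Zbtb16, which encodes PLZF, the factor that directs iNKT cells to their effector state, had 50, 47.1 and 41.1 CPM in SKG NKT1 and 98.6, 112 and 122 CPM in SKG NKT17 (log2 fold change -1.26, SE 0.2, adjusted p = 5.12e-05). Il17rb, the receptor of IL-25, had 5.02, 1.25 and 1.73 against 382, 401 and 411 CPM (log2 fold change -7.2, SE 0.56, adjusted p = 3.67e-07), and Icos belongs to the sort. Gata3 had 247, 230.2 and 213 against 207, 271 and 253 CPM, overlapping ranges that did not pass the test (adjusted p = 0.704).

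Il4 (chromosome 11, 53416484 to 53432171, minus strand, NCBIM37) was higher in SKG NKT1. It had 39.2, 47.1 and 56.1 CPM in SKG NKT1 and 14.6, 11.2 and 11.1 CPM in SKG NKT17, with every SKG NKT1 library above every SKG NKT17 library. The log2 fold change was 1.94 (SE 0.32, adjusted p = 0.00014). Il13, its neighbouring cytokine gene, was called in the same direction on 13 reads, all in SKG NKT1.

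Cytokines and chemokines were divided, with 11 of 23 tested genes called higher in SKG NKT1 and 6 higher in SKG NKT17, against 10.2% and 12.5% of all genes. Chemokines that attract effector cells were on the NKT1 side. Ccl5 had 1230, 1393 and 1210 CPM in SKG NKT1 and 0.992, 2.27 and 0.563 CPM in SKG NKT17 (log2 fold change 9.95, SE 0.5, adjusted p = 2e-09). Ccl4 had 7.99, 11.2 and 3.81 CPM against 0 reads (at least 15-fold higher). Csf1, a growth factor of macrophages, had 19.7, 19.4 and 13.2 CPM against 0 reads (at least 34.7-fold higher). Il2 was low in both, at 2.42 to 3.12 against 0.142 to 0.563 CPM. Tumour necrosis factor family members were found on both sides, Fasl and Tnfsf10 higher in SKG NKT1 as above and others higher in SKG NKT17. Tnf had 9.29, 8.96 and 9.18 CPM in SKG NKT1 and 42.6, 29.5 and 41.1 CPM in SKG NKT17 (log2 fold change -2.04, SE 0.25, adjusted p = 9.13e-07). Lta (lymphotoxin α) had 8.73, 12.5 and 12.1 against 105, 121 and 129 CPM (log2 fold change -3.41, SE 0.24, adjusted p = 1.35e-10), Tnfsf14 (LIGHT) 35.6 to 56.7 against 80.9 to 119 CPM, and Tnfsf11 (RANKL) 1.21 to 2.92 against 6.09 to 11.8 CPM.

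Of the receptors for migration signals, 7 of 22 tested genes were called higher in each subset, against 10.2% of all genes for NKT1 and 12.5% for NKT17. Besides Cxcr3, SKG NKT1 had more Cx3cr1 (9.36 to 14.4 CPM against 1 read in all, ratio 202, interval 35.8 to 8029). Cd69, which retains lymphocytes in tissue by antagonising S1P receptors, had 203, 257 and 188 against 50.3, 69.1 and 59.7 CPM (log2 fold change 1.85, SE 0.22). Besides Ccr6, SKG NKT17 had more Ccr7, the receptor that guides cells to the thymic medulla and lymph nodes, at 0, 3.96 and 1.91 CPM in SKG NKT1 and 86.7, 102 and 113 CPM in SKG NKT17 (log2 fold change -5.71, SE 0.5, adjusted p = 8.2e-07). Ccr4 had 10.2 to 16.8 against 169 to 195 CPM, and Ltb4r1, the receptor of leukotriene B4, 0.186 to 1.25 against 104 to 183 CPM. Ccr2 was present in both at 318 to 454 and 707 to 779 CPM, and Cxcr6, a receptor of iNKT cells in general, at 4729 to 5239 and 3547 to 3670 CPM, below the fold threshold (log2 fold change 0.48, SE 0.12).

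Of the integrin chains, 5 of 15 tested genes were called in each direction, against 10.2% and 12.5% of all genes. Without SKG NKT1 replicate 1, 3 were called higher in SKG NKT17. Those higher in SKG NKT1 include Itga1 (CD49a), which belongs to the sort and is no finding. Itgb1, the partner of CD49a, had 868, 886 and 764 CPM in SKG NKT1 and 101, 123 and 101 CPM in SKG NKT17 (log2 fold change 2.95, SE 0.17, adjusted p = 7.77e-12). Itgb2, a chain of LFA-1, had 1137 to 1359 against 422 to 526 CPM. Itgb3 had 12.6, 14 and 10.1 against 132, 151 and 162 CPM (log2 fold change -3.61, SE 0.33, adjusted p = 2.12e-07). Itgae (CD103), which binds E-cadherin of epithelium, had 986 to 1233 against 1482 to 1535 CPM and fell short of the fold threshold.

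Cytokine receptors were divided between the subsets, with 11 of 32 tested genes called higher in SKG NKT1, against 10.2% of all genes, and 13 higher in SKG NKT17, against 12.5%. The IL-12 receptor was split at the level of its chains. Il12rb2, the chain that signals through STAT4, had 162, 138 and 132 CPM in SKG NKT1 and 0.992, 0.349 and 0 CPM in SKG NKT17 (log2 fold change 8.13, SE 0.65, adjusted p = 1.8e-07). Il12rb1, the chain shared with the IL-23 receptor, had 63, 90.6 and 77.3 against 287, 223 and 298 CPM (log2 fold change -1.81, SE 0.18, adjusted p = 8.29e-08). The chains of the IFN-γ receptor were split as well: Ifngr1 had 804, 776 and 830.4 against 372, 292 and 349 CPM, and Ifngr2, the chain that limits signalling, had 1.11, 0.417 and 0 against 88.8, 82 and 91.6 CPM (log2 fold change -7.38, SE 0.43, adjusted p = 3.75e-11). The same held for the IL-18 receptor, with Il18r1 at 155 to 202 against 255 to 314 CPM and Il18rap at 136 to 161 against 50.4 to 53.4 CPM.

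Chains for other cytokines followed the subsets. Il10ra had 100, 68.3 and 85.4 CPM in SKG NKT1 and 0 reads in SKG NKT17 (at least 171-fold higher). Il21r had 275, 289 and 252 against 12.6, 14.8 and 14.4 CPM (log2 fold change 4.28, SE 0.14, adjusted p = 2.16e-16). Il2ra (CD25), the chain that raises affinity for IL-2, had 13.2, 7.71 and 13.7 CPM in SKG NKT1 and 157, 152 and 138 CPM in SKG NKT17 (log2 fold change -3.68, SE 0.32, adjusted p = 4.06e-08), the reverse of Il2rb. Il7r, which sustains survival, was higher in SKG NKT17 at 897 to 1085 against 1796 to 1913 CPM.

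Costimulatory, SLAM and checkpoint receptors were called in 19 of 30 tested genes, 12 higher in SKG NKT1 and 7 higher in SKG NKT17, against 22.8% of all genes. Slamf7 had 351, 358 and 358 against 2.55, 3.49 and 0.938 CPM (log2 fold change 7.22, SE 0.64, adjusted p = 1.6e-06). Cd2, an adhesion receptor that binds CD48, had 745, 747 and 706 against 95.3, 70.8 and 79 CPM (log2 fold change 3.16, SE 0.33, adjusted p = 4.97e-06). Cd28, the principal costimulatory receptor, had 289 to 335 against 115 to 167 CPM and Cd27 332 to 378 against 87.5 to 149 CPM. On the NKT17 side were Tnfrsf25 (24.8 to 36.4 against 234 to 280.2 CPM), a receptor of TL1A, and 3 genes of the SLAM or nectin-binding families: Slamf1 (14.8 to 21 against 41.9 to 43.8 CPM), Cd84 (158 to 193 against 310.2 to 336 CPM) and Cd96 (442 to 482 against 713 to 821 CPM). The inhibitory receptors did not share a direction. Tigit had 12.1, 4.37 and 9.18 against 0.992, 0.523 and 0 CPM (log2 fold change 3.94, SE 0.69). Pdcd1 (PD-1) had 17.8, 8.12 and 25.3 against 76.8, 76.9 and 84.6 CPM (log2 fold change -2.2, SE 0.25, adjusted p = 3.83e-06) and Lag3 had 0 reads against 1.84, 2.27 and 4.5 CPM (at least 4.89-fold higher in SKG NKT17).

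Of the TCR complex and its proximal kinases, 5 of 26 genes were called higher in SKG NKT1 (10.2% of all genes), 4 higher in SKG NKT17 (12.5% of all genes) and 17 were not called. Cd3e had 1796, 1734 and 1781 CPM in SKG NKT1 and 1967, 1842 and 2112 CPM in SKG NKT17 (log2 fold change -0.16, SE 0.08). Lck, the kinase upstream of ZAP70, had 2150 to 2467 against 1613 to 1795 CPM, below the fold threshold (log2 fold change 0.48, SE 0.1). Cd247, the CD3 ζ-chain to which ZAP70 binds, had 276, 297 and 307 against 424, 478 and 441 CPM (log2 fold change -0.61, SE 0.12, adjusted p = 0.00063), and its substrate Lat 604 to 672 against 869 to 1050 CPM (log2 fold change -0.62, SE 0.11). Both lie close to the fold threshold and lost the call in 2 of the 6 fits without 1 library each: Cd247 without SKG NKT1 replicate 1 or SKG NKT17 replicate 2, and Lat without SKG NKT1 replicate 2 or SKG NKT17 replicate 3. Lat2, an adaptor related to LAT, had 5.76, 4.17 and 6.76 against 0.142, 0.872 and 0.188 CPM, and Syk, the kinase related to ZAP70, 2.23, 4.58 and 2.94 against 0.992, 0 and 0.375 CPM (adjusted p = 0.056). The call of Syk was lost without SKG NKT1 replicate 2 or SKG NKT17 replicate 2 or 3, and without SKG NKT17 replicate 2 the genes of the list called higher in SKG NKT1 were 3. Txk, a Tec-family kinase, had 227 to 297 against 105 to 135 CPM, and Themis, a regulator of TCR signalling in thymocytes, 17.6, 23.3 and 16.8 against 30.7, 51.1 and 36.4 CPM (log2 fold change -1.03, SE 0.31, adjusted p = 0.0163). The coreceptor Cd4 had 81.9, 90.4 and 90.8 CPM in SKG NKT1 and 18.3, 21.6 and 19.5 CPM in SKG NKT17.

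Downstream of the receptor, each signalling branch held genes called in both directions. In the NF-κB branch 3 of 20 genes were called and in the calcium and NFAT branch 7 of 20, against 22.8% of all genes. These counts are small, and the branches were not tested against each other. Malt1, the protease of the CARMA1 complex, had 141, 150 and 136 CPM in SKG NKT1 and 14.2, 26.2 and 12 CPM in SKG NKT17 (log2 fold change 3.03, SE 0.22, adjusted p = 4.28e-10). Prkcq (PKCθ), which activates that complex, had 374 to 439 against 147 to 200 CPM (log2 fold change 1.19, SE 0.12). Bcl3, an atypical IκB protein, was higher in SKG NKT17, at 11.9 to 22.1 against 73.8 to 98.4 CPM. In the calcium and NFAT branch 3 genes were called higher in SKG NKT1, led by the calcineurin subunit Ppp3cc (153, 169 and 168 against 31.6, 36.5 and 31.2 CPM, log2 fold change 2.3, SE 0.32), and 4 higher in SKG NKT17, among them the calcium entry genes Stim1 (130.1 to 145 against 212 to 233 CPM) and Orai2 (143 to 155 against 222 to 256 CPM). The latter count was 2 without SKG NKT1 replicate 1 or 3, and in the NF-κB branch 2 genes were higher in SKG NKT17 without SKG NKT1 replicate 2.

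In the Ras and ERK branch 8 of 28 tested genes were called higher in SKG NKT1, against 10.2% of all genes, and 2 higher in SKG NKT17, against 12.5%, and several of those higher in NKT1 encode brakes of the pathway. Spry2, an inhibitor of ERK signalling, had 101, 68.5 and 64.6 against 1.56, 1.57 and 1.69 CPM (log2 fold change 5.59, SE 0.42, adjusted p = 3.53e-08). Dusp6, an ERK phosphatase, had 92.5, 90.2 and 80 against 26.9, 20.8 and 16.5 CPM (log2 fold change 2.03, SE 0.28, adjusted p = 4.83e-06). Rasa3, a GTPase activator, had 283 to 366 against 131 to 165 CPM. The Ras exchange factors went in opposite directions, with Rasgrp1, the main activator of Ras in T cells, at 141, 188 and 173 against 325, 365 and 320 CPM (log2 fold change -1.01, SE 0.17, adjusted p = 7.09e-05) and Rasgrp2 at 172 to 187 against 48.2 to 60.7 CPM (log2 fold change 1.68, SE 0.15). Dusp4, another phosphatase of the family, had 1 read in SKG NKT1 and 3.49 to 6.37 CPM in SKG NKT17 (ratio 74, interval 12.9 to 2956). Without SKG NKT17 replicate 1 the genes of this branch called higher in SKG NKT1 were 5.

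Negative regulators of TCR signalling were called in 13 of 24 genes, 11 of them higher in SKG NKT1 against 10.2% of all genes, with a median log2 fold change of 0.55 over the list. Ubash3a, a suppressor that dampens ZAP70 signalling, had 186, 170 and 195 CPM in SKG NKT1 and 10.6, 15.5 and 13.1 CPM in SKG NKT17 (log2 fold change 3.81, SE 0.23, adjusted p = 1.07e-11). Its paralog Ubash3b, a phosphatase of ZAP70 and SYK, had 27.7, 17.7 and 24.6 against 99.4, 87.4 and 94.6 CPM (log2 fold change -2, SE 0.21, adjusted p = 1.33e-07). Ptpn6 (SHP-1) had 1671, 1086 and 1756 against 554, 418 and 581 CPM (log2 fold change 1.54, SE 0.17), Ptpn22 317 to 439 against 128 to 156 CPM, and Ptprc (CD45), which acts on Lck in both directions, 2605 to 2819 against 883 to 1220 CPM. Rnf128 (GRAIL), an E3 ligase of anergic T cells, had 37.9, 26.4 and 22.3 against 0.85, 1.05 and 1.69 CPM (log2 fold change 4.6, SE 0.43). Cd5, whose level follows TCR signal strength in thymocytes, had 184, 144 and 253 CPM in SKG NKT1 and 82.4, 88.1 and 104 CPM in SKG NKT17 (log2 fold change 1.09, SE 0.18, adjusted p = 0.000106).

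Of the genes induced by recent TCR engagement, 3 of 23 were called higher in each subset, shares near the 10.2% and 12.5% of all genes, and libraries of 1 subset spread widely. Egr1 had 97.9, 150 and 46.9 CPM in SKG NKT1 and 123, 302 and 89.7 CPM in SKG NKT17 (adjusted p = 0.337). Nr4a1, which encodes Nur77, had 5.57, 38.7 and 6.24 against 31.2, 52 and 35.1 CPM (adjusted p = 0.297). Without SKG NKT1 replicate 2, Nr4a1 passed the test (log2 fold change -2.71). In Egr1, Nr4a1 and Fos (96.4, 525 and 162 against 754, 1534 and 1085 CPM for Fos), replicate 2 was the highest library of its subset. The replicate 2 libraries of both subsets share a token in their titles. With a block by this title token, Nr4a1 and Jun were called higher in SKG NKT17. Fos was called (log2 fold change -2.11, SE 0.76, adjusted p = 0.0595), but lost the call without SKG NKT1 replicate 1 or 3 or SKG NKT17 replicate 2 or 3. The number of these genes called higher in SKG NKT17 was 0 without SKG NKT1 replicate 1, 1 without SKG NKT1 replicate 3 or SKG NKT17 replicate 2 or 3, and 5 without SKG NKT1 replicate 2. Ier3, an inhibitor of apoptosis, was higher in SKG NKT1, at 44.8, 31.5 and 25.8 against 1.27, 1.74 and 0.188 CPM (log2 fold change 4.94, SE 0.6).

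**Figure D2:**
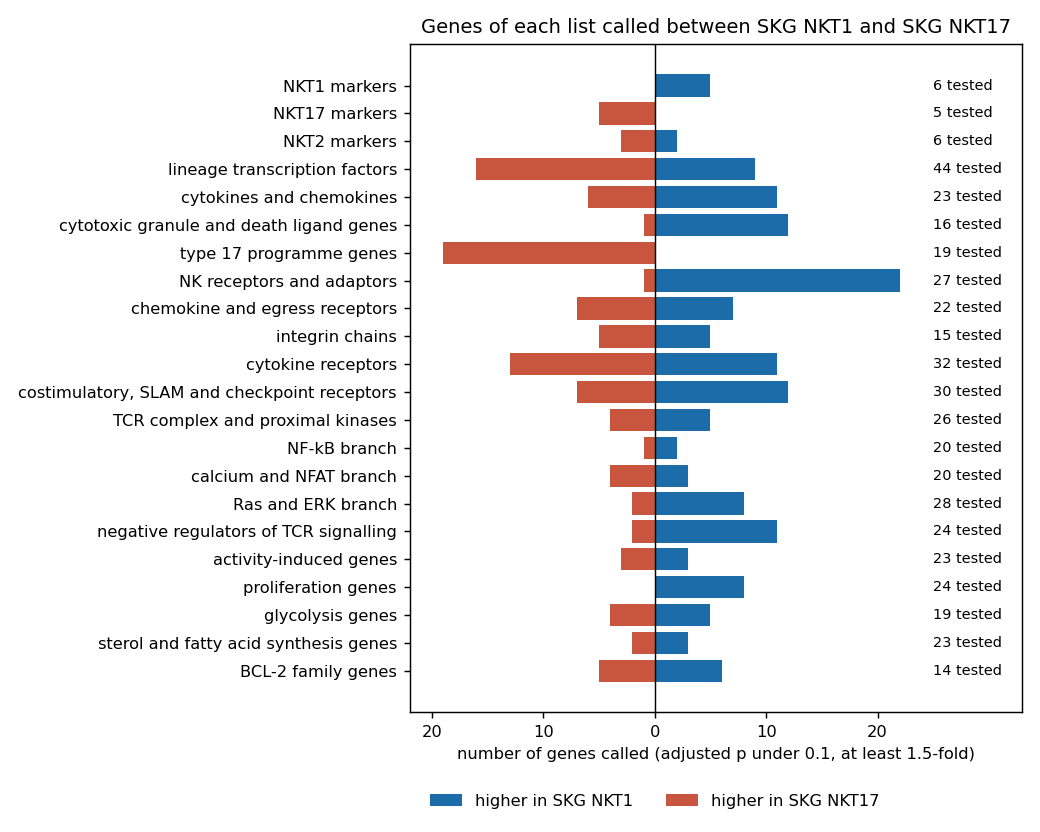
Number of genes of each list called between SKG NKT1 and SKG NKT17 (adjusted p under 0.1 and at least 1.5-fold), with genes higher in SKG NKT1 to the right in blue, genes higher in SKG NKT17 to the left in red and the number tested beside each list. The type 17 programme (19 of 19) and the NK receptors (22 of 27 to the NKT1 side) are the longest one-sided bars. The bars to the NKT1 and NKT17 sides hold 2 and 1 of 20 genes for NF-κB. They hold 3 and 4 of 20 for calcium and NFAT, and 8 and 2 of 28 for Ras and ERK. The integrin chains include Itga1 and the NKT2 markers Icos, both genes of the sort.

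Of the proliferation genes, 8 of 24 were called higher in SKG NKT1, against 10.2% of all genes, and 16 were not called, with a median log2 fold change of 0.7, against -0.014 over all genes. Mki67, the gene of the Ki-67 protein of cycling cells, had 22.9, 26.9 and 14.9 CPM in SKG NKT1 and 3.4, 2.97 and 5.82 CPM in SKG NKT17 (log2 fold change 2.41, SE 0.34, adjusted p = 6.45e-06). Subunits of the MCM helicase that licenses replication origins moved less, with Mcm3 at 148, 115 and 101 against 61.8, 68.2 and 57.4 CPM (log2 fold change 0.96, SE 0.14, adjusted p = 1.51e-05) and Mcm6 at 137 to 166 against 65.7 to 84.9 CPM. Pcna had 177 to 210.3 against 126 to 142 CPM, below the fold threshold. Top2a, with 31, 42.7 and 20.3 against 16.9, 12.7 and 19.7 CPM (adjusted p = 0.0467), lost its call without SKG NKT17 replicate 1 or 2 or SKG NKT1 replicate 2. The summed level of the 24 genes was 1169 to 1417 CPM in SKG NKT1 and 771 to 974 CPM in SKG NKT17, and the number called ranged from 5, without SKG NKT17 replicate 2, to 10 over the fits without 1 library.

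Of 19 tested glycolysis genes, 5 were called higher in SKG NKT1 (10.2% of all genes) and 4 higher in SKG NKT17 (12.5% of all genes). The glucose transporters were on the NKT1 side, with Slc2a3 (GLUT3) at 145, 151 and 151 against 34.4, 22.5 and 36.6 CPM (log2 fold change 2.25, SE 0.17, adjusted p = 5.75e-10) and Slc2a1 (GLUT1) at 79.6 to 86.6 against 39.6 to 50 CPM (log2 fold change 0.85, SE 0.17). The lactate exporter Slc16a3 was on the NKT17 side (4.58 to 8.18 against 28.2 to 34 CPM), as was Ldhb, a subunit of lactate dehydrogenase (6.5 to 9.18 against 20 to 48 CPM). Gapdh and Ldha did not pass the test. Among 23 tested sterol and fatty acid synthesis genes, 3 were called higher in SKG NKT1 and 2 higher in SKG NKT17, which is close to the 22.8% of all genes, and 18 were not called. Mvd, an enzyme of the mevalonate pathway, had 32.5 to 41.4 against 59.3 to 76.9 CPM.

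BCL-2 family genes differed between the subsets in 11 of 14 tested members, against 22.8% of all genes, 6 higher in SKG NKT1 and 5 higher in SKG NKT17. Bcl2, which protects from mitochondrial apoptosis, had 601, 599 and 641 CPM in SKG NKT1 and 36, 24.6 and 34.9 CPM in SKG NKT17 (log2 fold change 4.27, SE 0.42, adjusted p = 4.11e-06). Bcl2l1 (BCL-XL) had 84.5, 97.1 and 92.7 against 35, 41.3 and 28.5 CPM. Pro-apoptotic members were called in both directions. Bcl2l11 (BIM) had 47.6 to 52.8 against 14.3 to 20.1 CPM and Bid 75.6 to 88.2 against 15.6 to 19.7 CPM. Bad had 12.7 to 21 CPM in SKG NKT1 against 28.8 to 50.6 CPM in SKG NKT17 (log2 fold change -1.16). Bik had 12.3, 7.5 and 9.36 against 107, 74.5 and 98.5 CPM (log2 fold change -3.26, SE 0.24, adjusted p = 3.03e-10). Bcl2a1a (A1), which has near-identical copies and is uncertain, had 0 reads in SKG NKT1 and 4.01 to 5.07 CPM in SKG NKT17 (at least 8.12-fold higher). Mcl1 had 67.8, 184 and 73.6 against 145, 138 and 127 CPM and did not pass the test.

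The largest differences by fold included genes outside these lists. Kcnj8, a potassium channel subunit, had 125, 123 and 87.5 CPM in SKG NKT1 and 0 reads in SKG NKT17 (at least 223-fold higher), and Rab27b, a GTPase of granule secretion, 72.3, 63.7 and 42.4 CPM against 0 reads (at least 119-fold higher). Ly6c1 and Ly6c2, paralogs that can share reads, had 738 to 915 and 1096 to 1309 CPM in SKG NKT1 and at most 0.698 and 1.42 CPM in SKG NKT17. In the other direction, Mycn, a relative of Myc, had 0 reads in SKG NKT1 and 84.1, 84.1 and 80 CPM in SKG NKT17 (at least 147-fold higher), so that the Myc genes were divided by subset. Lingo4, a leucine-rich repeat protein, had 0 reads against 60.6, 89 and 84.6 CPM (at least 136-fold higher), and Gm15987, an unnamed gene for which counting by strand is not stated, 0 reads against 89.7, 76.2 and 84.8 CPM (at least 149-fold higher). Abi3bp (49.2 to 52.5 CPM), Clstn3 (32.1 to 37.5 CPM), Rhobtb1 (24.6 to 36.4 CPM) and Stab2 (19 to 29.5 CPM) had 0 reads in all 3 SKG NKT1 libraries as well, and Mmp25, a membrane-bound metalloproteinase, had 2 reads against 275, 261 and 294 CPM (ratio 2202, interval 609 to 18190).

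By level, the genes with the largest differences in CPM were H2-D1, Nkg7, Ctsd, Ms4a4b and AW112010 on the NKT1 side and Lgals3, Malat1, A130040M12Rik, Ramp1 and Rexo2 on the NKT17 side. H2-D1, a classical MHC class I gene, had 7378, 7154 and 8375 CPM against 3671, 3140 and 3865 CPM (log2 fold change 1.1, SE 0.12). Ms4a4b, a tetraspan membrane protein of T cells, had 2507, 2665 and 2553 against 26.8, 25.3 and 15.8 CPM (log2 fold change 6.82, SE 0.2, adjusted p = 2.16e-16). Lgals3, which encodes galectin-3, had 68.9, 88.5 and 66.2 CPM in SKG NKT1 and 7192, 6425 and 6612 CPM in SKG NKT17 (log2 fold change -6.5, SE 0.41, adjusted p = 4.62e-08). Rexo2, an oligoribonuclease, had 212, 232 and 221 against 1750, 1548 and 1697 CPM. Malat1, a nuclear noncoding RNA, had 1179 to 1438 against 2703 to 3124 CPM (log2 fold change -1.16, SE 0.29, adjusted p = 0.00809).

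Most markers of cells that the gates could have let through were low in the 6 SKG libraries. Of 8 B cell markers, 3 had 0 reads in all 6, among them Pax5 and Ebf1, and apart from Cd79b the list summed to 0.173 to 1.04 CPM in SKG NKT1 and 1.13 to 2.07 CPM in SKG NKT17. Cd79b alone was called higher in SKG NKT17, at 2.94 to 5.57 against 24.6 to 40 CPM. Of 9 myeloid markers, 7 had 0 reads and the list summed to at most 5.8 CPM, and red cell markers summed to at most 0.708 CPM. Of 9 markers of CD4+CD8+ thymocytes, 4 had 0 reads (Rag1, Rag2, Dntt and Arpp21), but Cd8a (0.186, 0.625 and 0 against 9.77, 0.523 and 5.82 CPM) and Cd8b1 (0.372, 0.833 and 3.46 against 36.8, 12.4 and 18.4 CPM) were called higher in SKG NKT17, and Cd4 (81.9 to 90.8 against 18.3 to 21.6 CPM), which iNKT cells also carry, was called higher in SKG NKT1. The part of these cells in the results was not tested.

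Reads of the 4 NKT1 markers Tbx21, Ifng, Cxcr3 and Xcl1 in NKT17 libraries were few. These 4 summed to 1620 to 1867 CPM in SKG NKT1 and 3.84 to 13 CPM in SKG NKT17, where WT NKT17 had 1.56 to 5.04 CPM. Il2rb and Klrb1c, which were read in both subsets, were left out of this sum. With them, the 6 markers summed to 3597 to 4046 CPM in SKG NKT1, 183 to 247 CPM in SKG NKT17 and 317 to 364 CPM in WT NKT17. SKG NKT17 replicate 1 was the highest of its group for Cxcr3, Nkg7, Gzmb and Klrk1.

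To show which of these differences depended on the genotype, the same contrast was taken in the 3 WT NKT1 and 3 WT NKT17 libraries, which share no library with the SKG contrast, and the difference between the contrasts was tested. In WT, 2748 genes (24.7%) were called. Of the SKG calls, 1708 were called in the same direction in WT, 67.4% of the SKG calls and 62.2% of the WT calls, and 2340 (92.4%) had a WT fold change of the same sign. The contrast itself was called different between genotypes for 464 genes (4.17%), 236 with a positive and 228 with a negative difference (SKG minus WT). Of the 804 genes called in SKG only, 78 had a called difference, and of the 1019 called in WT only, 152, so for most of them a dependence on the genotype was not shown.

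The subset markers were among the genes without a called difference. The subset contrast of the 6 NKT1 markers and of Il17a, Il23r, Il1r1 and Ccr6 was not called different between genotypes (lowest edgeR adjusted p 0.239, for Il2rb). A difference was called for 1 of the 19 type 17 genes and 3 of the 27 NK receptors and adaptors, against 4.17% of all genes. These counts and the uncalled markers show no equality of the genotypes, since the contrast is imprecise where a subset had few reads. In the NK list 6 genes had 0 reads in SKG NKT17 and 5 in WT NKT17. Klrc1 was not called at 38.5 to 52.2 CPM in SKG NKT1 and 135 to 178 CPM in WT NKT1, with 0 and 2 reads in the NKT17 groups. The median log2 fold change of the NK list was 7.5 in SKG and 9.6 in WT (5.98 and 8.03 with genes at 0 set to their bound). Il2rb and Cxcr3 had unadjusted p of 0.0236 and 0.0495. For Tbx21 the difference was -0.92 (SE 1.05, adjusted p = 0.775), with the large error that few reads in NKT17 cells give. Tmem176b was the type 17 gene called (SKG -4.85, WT -5.89, difference 1.04, SE 0.28, adjusted p = 0.0579), and it lost the call without SKG NKT1 replicate 1 or 3. For Ccr6 the ratios say little of the levels. SKG NKT17 had 593, 618 and 565 CPM and WT NKT17 18.4, 3.65 and 14.1 CPM, but with 3 and 1 reads in the NKT1 libraries the contrasts could not be told apart (adjusted p = 0.777). Il17a ran the other way, with 6.94 to 10.5 CPM in SKG NKT17 and 34, 6.09 and 83.3 CPM in WT NKT17, where the WT libraries enclosed the SKG range. The levels of NKT17 cells in the 2 genotypes were not tested here.

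**Figure D3:**
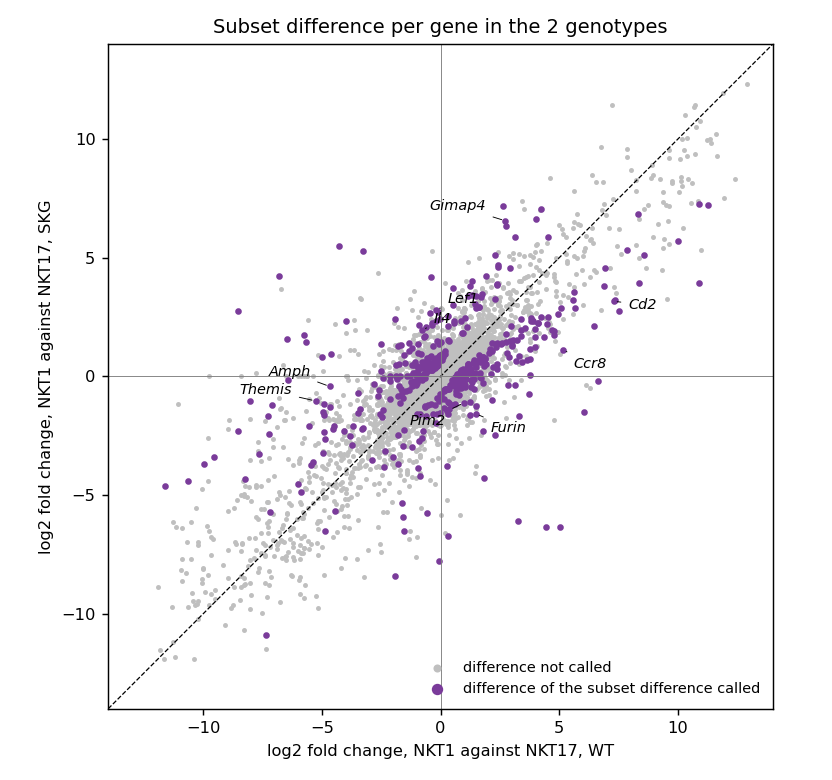
Each point is 1 of the 11118 tested genes, with its log2 fold change of NKT1 over NKT17 in WT on the horizontal axis and in SKG on the vertical axis, both fitted values that are large where a subset has 0 reads, and a dashed line of equal values. Purple points are the 464 genes whose subset contrast differed between genotypes, and most genes far from 0 lie near the line.

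Some differences were larger in SKG than in WT. Lef1 was called in SKG and not in WT, and SKG NKT17 had 8.22, 10.3 and 7.51 CPM where WT NKT17 had 86.7, 67.1 and 83.7 CPM, while both NKT1 groups lay between 44.8 and 81.5 CPM. The difference between the contrasts was 2.98 (SE 0.29, adjusted p = 5.74e-06). Galnt10, a glycosyltransferase, was also called in SKG and not in WT, but through its NKT1 level, with 120.4, 155 and 99.4 CPM in SKG NKT1 and 20.2 to 32.2 CPM in the other 3 groups (difference 2.52, SE 0.28, adjusted p = 1.25e-05). Gimap4, a GTPase of lymphocyte survival, was higher in NKT1 in both genotypes, but SKG NKT17 had 23.2, 9.07 and 17.3 CPM and WT NKT17 317, 307 and 259 CPM (SKG 6.55, WT 2.72, difference 3.83, SE 0.38, adjusted p = 4.77e-05).

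The proliferation genes had another pattern in WT. There 5 of the 24 were called higher in WT NKT17, where 1505 of all 11118 genes were called in that direction. The other 19 were not called, and the median log2 fold change was -0.09. Mki67 had 13.4, 15.1 and 9.92 CPM in WT NKT1 and 16, 8.69 and 14.3 CPM in WT NKT17 (difference 2.43, SE 0.45, adjusted p = 0.00341), and Mcm3 116 to 159 against 117 to 135 CPM (difference 0.78, SE 0.2, adjusted p = 0.0341). The contrast was called different for 5 of the 24, against 4.17% of all genes. These were Mki67, Mcm3, Top2a, Ccna2 and Plk1, all with positive sign. The calls of the difference for Ccna2 and Plk1 were lost in 8 of the 19 alternatives each, 7 of them fits without 1 library, that of Top2a without WT NKT1 replicate 1 or SKG NKT1 replicate 2, and that of Mcm3 without SKG NKT1 replicate 1.

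Il4 differed between the subsets in opposite directions. WT NKT1 had 7.73, 13 and 25.3 CPM and WT NKT17 21.9, 31.3 and 24 CPM (log2 fold change -0.77, adjusted p = 0.0861), with overlapping ranges, against the 3.85-fold higher level of NKT1 in SKG. The difference between the contrasts was 2.71 (SE 0.45, adjusted p = 0.00222). Il13 followed Il4 on few reads, with 0, 0 and 0.177 CPM in WT NKT1 and 0.195, 1.04 and 0.824 CPM in WT NKT17. Its fitted difference depends on how groups with 0 reads are treated.

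Pim2 and Furin were called in opposite directions in the genotypes. Pim2 (chromosome X, 7455388 to 7460558, plus strand, NCBIM37), a survival kinase induced by cytokines, had 167, 190.2 and 151 CPM in SKG NKT1 and 403, 330 and 365 CPM in SKG NKT17, but 478, 412 and 465 CPM in WT NKT1 and 202, 268 and 215 CPM in WT NKT17 (SKG -1.11, WT 0.98, difference -2.1, SE 0.18, adjusted p = 7.71e-07). Furin (chromosome 7, 87533471 to 87550322, minus strand, NCBIM37), a convertase that cleaves TGF-β1 and other precursors, had 21, 21.3 and 20.1 CPM against 62, 63.2 and 60.2 CPM in SKG and 90.3, 93 and 90.2 against 24, 26.1 and 47.1 CPM in WT (difference -3.06, SE 0.3, adjusted p = 3.72e-06). In all, 21 genes were called in opposite directions in the 2 genotypes. Further ones were Plp2, Fam160a2 and Gadd45g, a stress-induced gene, all higher in NKT17 in SKG and in NKT1 in WT, and Cdc25b, a phosphatase that activates cyclin-dependent kinases, which was higher in NKT1 in SKG and in NKT17 in WT.

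Other differences of WT were reduced in SKG. Cd2 had 1.76, 9.56 and 2.88 CPM in WT NKT17 against the 95.3, 70.8 and 79 CPM of SKG NKT17, while the NKT1 cells of both genotypes had 706 to 747 CPM (SKG 3.16, WT 7.29, difference -4.13, SE 0.5, adjusted p = 0.00043). Gng2, a G-protein γ-subunit, had 90.1 to 106 against 56.5 to 69.2 CPM in SKG and 83.1 to 114 against 6.05 to 11.7 CPM in WT (difference -2.82, SE 0.29, adjusted p = 5.74e-06), and Ccr8, a chemokine receptor, 94.9 to 120 against 37.3 to 61.2 CPM in SKG and 81.2 to 136 against 1.37 to 4.7 CPM in WT (difference -4.04, SE 0.42, adjusted p = 2.07e-05). Neurl3 and Ttc39c had the same form. Ubash3a, the suppressor described above, had 10.6 to 15.5 CPM in SKG NKT17 and 0.39 to 2.33 CPM in WT NKT17 at 143 to 202 CPM in the NKT1 groups (difference -3.06, SE 0.37, adjusted p = 3.02e-05).

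Themis was higher in NKT17 in both genotypes, and Amph, which encodes a membrane-curving protein, was called higher in NKT17 in WT only. For both genes the contrast was larger in WT. Themis had 0, 0 and 0.354 CPM in WT NKT1 and 2.93, 8.69 and 3.02 CPM in WT NKT17, below every SKG library (difference 4.23, SE 0.88, adjusted p = 0.0105). Amph had 0.966 to 3.63 CPM in WT NKT1 and 53.4 to 72.2 CPM in WT NKT17, but 3.81 to 6.87 against 5.63 to 10.5 CPM in SKG, where it was not called (difference 4.24, SE 0.51, adjusted p = 2.95e-05). Effector genes of NKT1 cells with a smaller contrast in SKG were Prf1 (SKG 2.88, WT 5.67, adjusted p of the difference 0.0027), Klrk1 (5.1 and 8.56, adjusted p = 0.00399), Fasl (5.34 and 7.86, adjusted p = 3.86e-05) and Nkg7 (7.26 and 10.88, adjusted p = 0.0579), whose call was lost in 8 of the 12 fits without 1 library. In each the NKT17 level was higher in SKG, for example 9.94 to 11.8 against 2.15 to 2.61 CPM for Fasl. The sum of the 4 NKT1 markers without Il2rb and Klrb1c was 3.84 to 13 CPM in SKG NKT17 and 1.56 to 5.04 CPM in WT NKT17. The part of such reads in these differences was not tested.

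**Figure D4:**
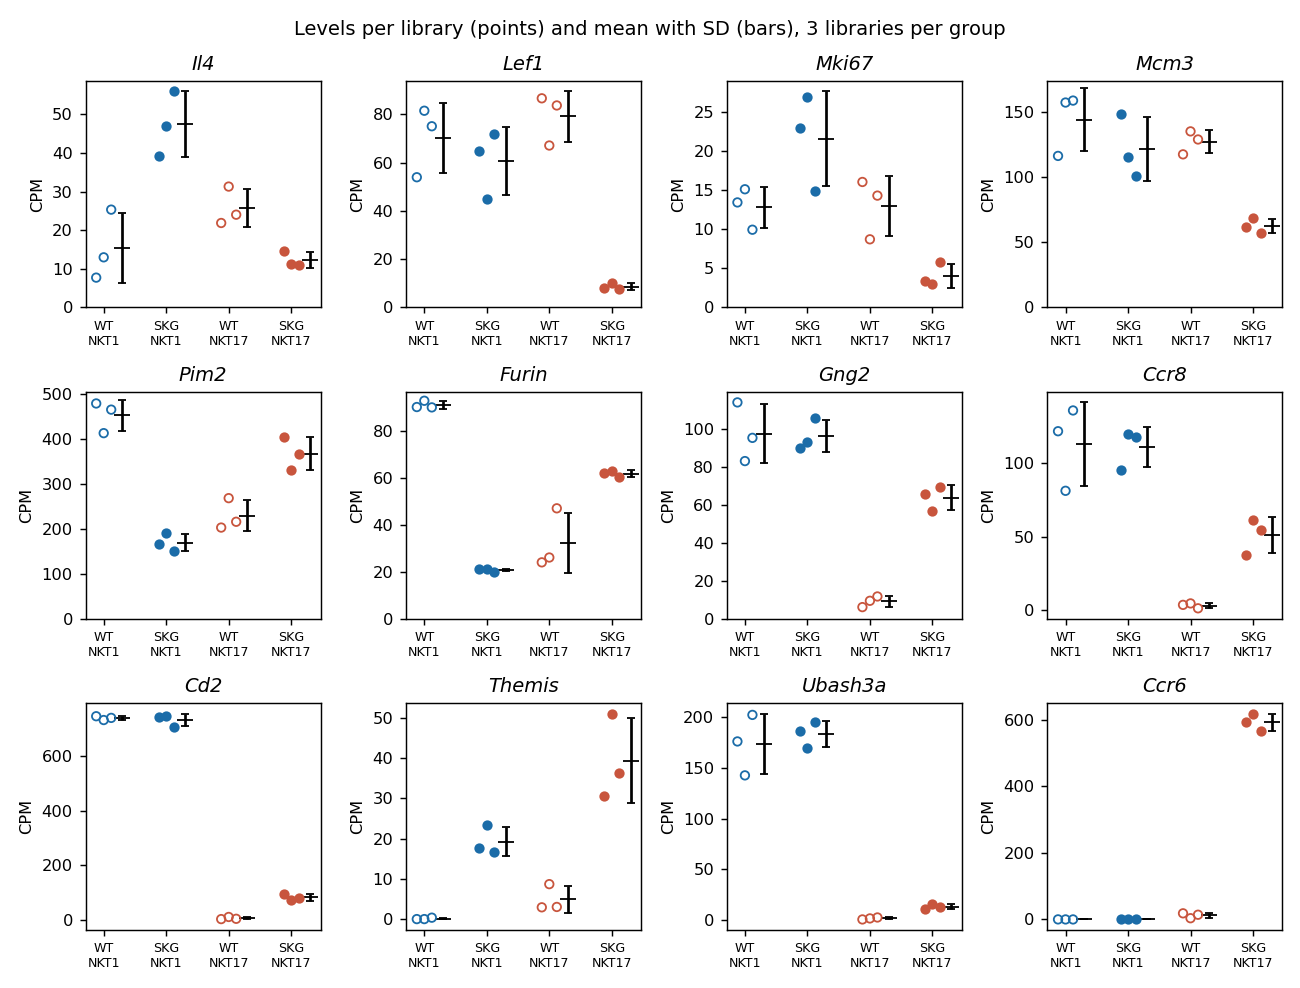
CPM per library (points) with the mean and SD (bars) of the 3 libraries of each of the WT and SKG NKT1 and NKT17 groups, on linear axes, for 12 genes. Il4, Pim2 and Furin reverse between genotypes, Lef1, Mki67 and Mcm3 are low in SKG NKT17 only, and Gng2, Ccr8, Cd2 and Ubash3a are nearer to each other in the 2 SKG subsets than in WT. Ccr6 is high in SKG NKT17 only, at 565 to 618 CPM.

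Receptors and signalling genes with a called difference were spread over the lists. Of the 30 tested costimulatory, SLAM and checkpoint receptors, 10 were called, against 4.17% of all genes, among them Cd5, which was called between the subsets in SKG but not in WT (144 to 253 against 82.4 to 104 CPM, and 245 to 304 against 230.2 to 261 CPM, difference 0.91, SE 0.25, adjusted p = 0.0618, lost in 6 of the 12 fits without 1 library), and Cd96, which was called in SKG only. Relb and Nfkb2, the subunits of the noncanonical NF-κB pathway, were called in WT but not in SKG, with 65.4 to 76.9 against 78.9 to 83.5 CPM for Relb in SKG and 99 to 122 against 50.6 to 62 CPM in WT (difference -1.2, SE 0.18, adjusted p = 0.000264). Dgka, a kinase that removes diacylglycerol, was below the fold threshold in SKG (log2 fold change 0.51) and called in WT (1.91), with a difference of -1.4 (SE 0.17, adjusted p = 3.02e-05).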

How the data were processed

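RNA of sorted thymic iNKT cells was sequenced, and the authors deposited a table of raw read counts per gene, not normalised. The submitters' processing notes name Bowtie 1.0.0, TopHat 1.4.1 and HTSeq 0.7.1. The study's methods give the mm9 build while the notes list hg19 and mm10, so genes were matched by symbol alone. The annotation and strand setting used in counting are not given in the sources used here, and overlapping or near-identical genes may share reads. Groups came from the sample labels, and 2 sample columns that matched no sample given here were not used.

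Counts were scaled by TMM and fitted with the robust quasi-likelihood test of edgeR 4.0.16 in R 4.3.3, with 1 coefficient for each of the 6 groups, so that the 18 libraries shared 1 estimate of spread. Contrasts were NKT1 minus NKT17 within SKG, within WT, and their difference, with Benjamini-Hochberg adjustment over the 11118 genes kept by edgeR's filter. The SE of a log2 fold change was taken from the test statistic. CPM values are counts scaled to the TMM-adjusted library size. Floors are 3 reads per library, ratios on few reads carry exact 95% counting intervals, and both cover counting error only, since reads had no molecular identifiers. Named by rule were all markers, the called genes with the largest fold changes (mean of at least 50 counts, groups apart) and largest CPM differences, the members with the largest changes of each list with further members of a described role, and the genes with the smallest adjusted p for the difference between genotypes or called in opposite directions. The members, lists and tests were chosen with earlier results of these data known. The fit was tested on simulated counts. Alternatives were DESeq2 1.42.0, RLE and upper-quartile scaling, other filters and thresholds, a block by title token, only the compared libraries, and leaving out each library. Gene positions are from GENCODE on NCBIM37 and promoter windows from RefSeq on GRCm38.p6. Values of some members are not reported here.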

Additional observations from a re-analysis of the deposited data

Results flagged for a closer look

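The test of the difference between genotypes (NKT1 minus NKT17 in SKG less the same in WT, edgeR, adjusted p under 0.1 and at least 1.5-fold) singled out 464 genes, where 1652 had an unadjusted p under 0.05. Those among the genes named or listed are given here by their difference on the log2 scale. Groups of 3 libraries are too small for a check of single libraries that stand apart.

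Positive differences, towards a higher NKT1 to NKT17 ratio in SKG, were found for the transcription factors Lef1 (2.98), Id3 (1.95), Irf8 (1.89) and Runx1 (0.99), for the cytokines Il4 (2.71), Il13 (8.56) and Tnfsf11 (3.48), for the cell cycle genes Mki67 (2.43), Plk1 (2.37), Cdc25b (2.31), Top2a (1.77), Ccna2 (1.65) and Mcm3 (0.78), and for the receptors and signalling genes Themis (4.23), Rnf128 (2.2), Itgb3 (1.77, lost in 7 of 19 alternatives), Ccr2 (1.2), Cd5 (0.91), Cd247 (0.87) and Cd226 (0.68). Others were She (6.99), Amph (4.24), Gimap4 (3.83), Trpm6 (2.79), Galnt10 (2.52), Tmem176b (1.04) and Rexo2 (0.8). The values of She and Il13 depend on the prior count, since a group had 0 reads in every library.

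Negative differences were found for the NK receptors Klrd1 (-4.03), Klrk1 (-3.46) and Klrb1f (-1.5) and the effector genes Nkg7 (-3.62), Prf1 (-2.78) and Fasl (-2.52). Receptors with a negative difference were Tigit (-6.95), Cd8a (-6.14), Cd2 (-4.13), Ccr8 (-4.04), Itga4 (-2.73), Il2ra (-1.89), Il4ra (-1.13), Il10rb (-0.98), Tnfrsf18 (-0.76) and Cd96 (-0.73). That of Tigit depends on the prior count. Signalling genes were Ubash3a (-3.06), Gng2 (-2.82), Dusp6 (-1.52), Dgka (-1.4), Relb (-1.2), Nfkb2 (-1.19) and Pag1 (-0.94, lost in 10 of 19 alternatives), and transcription factors Runx2 (-1.9), Bhlhe40 (-1.8) and Ikzf2 (-1.78). The cytokines Lta (-1.41) and Ltb (-0.72) and the genes Neurl3 (-4.78), Mmp25 (-3.51), Fam160a2 (-3.17), Furin (-3.06), Gadd45g (-2.86), Ttc39c (-2.44), Pim2 (-2.1), AW112010 (-2.01), Lgals3 (-1.62), Plp2 (-1.59) and Ms4a4b (-1.49) made up the rest. Several of these calls were unstable. They were kept in only 6 of 19 alternatives for Ikzf2 and for Lgals3, 10 of 19 for Runx2, 11 of 19 for Nkg7 and 11 of 18 for Cd8a.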

How the results depend on the processing

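The number of genes called between SKG NKT1 and SKG NKT17 was 2533 and lay between 2285 and 2461 when 1 library was left out, at 2596 with DESeq2 and at 2592 with a replicate block by title token. The number with a called difference between genotypes was less stable. It was 464, fell to 278 at an adjusted p under 0.05, ranged from 296 (without SKG NKT17 replicate 3) to 537 over the fits without 1 library, and was 641 with DESeq2, 334 with only the libraries compared and 523 with the replicate block. The NKT1 and NKT17 libraries of SKG share tokens in their titles whose meaning is not given. Some of these tokens also occur in titles of WT libraries. The deviations of libraries with the same token from their group means correlated at 0.067, 0.198 and 0.158, each the best match of its NKT1 library. Pairs with different tokens reached at most 0.011. Not all of the former were over 0.1, a cut chosen here, so the main fit did not treat the libraries as paired. In SKG the replicate block gained the calls of Nr4a1, Jun and Klf2 and lost that of Nfat5.

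Among genes without a call, the log2 fold change of Gata3 ranged from -0.188 to 0.001 (without SKG NKT17 replicate 2) and that of Klrb1c from -0.127 (without SKG NKT1 replicate 3; -0.022 without replicate 1) to 0.366 over the fits without 1 library. Of the values of named genes under the alternatives, 4136 kept their direction and call, 183 lost the call, 16 gained it and 3 turned sign. In SKG the calls of Fos, Fosb, Dusp2, Syk, Nfat5, Gng2, Trpm6, Top2a, Cd247, Lat and Ctsl were lost in some alternatives. So were those of Nfatc2, Nfatc1, Pmaip1, Ccl3, Itga4, Itgb7, Nab2, S1pr1, Mcm5, Cdk1, Ccnb2 and Fasn. For the difference, calls were lost in most alternatives for Lgals3, Ikzf2 and Pag1. They were lost in some for Nkg7, Ccna2, Cd8a, Runx2, Runx1, Itgb3, Plk1, Top2a, Mcm3, Klrd1, Cd5, Dusp6, Mmp25, Rnf128, Il4ra, Tmem176b and Tigit. The causes were not tested. Limits are 3 libraries a group, the lack of information on animals per library, and few reads of each subset's genes in the other, which leave the difference between genotypes imprecise for the most restricted genes.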
